A study of Mus musculus with 33 samples.

Results

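The gRNAs described here are those whose target lies within Rpp25, a short gene on mouse chromosome 9. A gRNA was a member if the midpoint of its deposited interval lay in the annotated gene, chr9:57504102-57505447 (mm10, plus strand, gene ID 102614, 1346 bp), and 241 of the 3908 gRNAs of the Rpp25 library that have a genomic interval met this rule. The choice used position alone and no measured value. Exon, untranslated and coding boundaries inside the gene were not used here, so positions are given as the distance from the first annotated base to the midpoint of the deposited interval.

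The study mutated DNA in and around 4 GFP-tagged genes by CRISPR in cultured embryonic stem cells of the mouse, which are pluripotent cells derived from the early embryo. In the line used here GFP was fused to the C-terminus of Rpp25, and the cells also carried a dummy guide RNA at the ROSA26 locus that served as a placeholder. Cells were kept in serum-containing medium with LIF, a GSK-3 inhibitor and the MEK inhibitor UO126. After electroporation of the gRNA library, genomic DNA was taken from the unsorted bulk population and from cells sorted as GFP-negative, and the gRNAs were counted. Each population is 1 library without replicate, both from the same line, and the labels do not say whether that line is 1 clone. The title of the GFP-negative sample names Rpp26, while the other labels of that sample give Rpp25, which was taken as right. With 1 library per population no difference below could be tested, and every interval covers counting error only, since PCR reads without molecular identifiers are not independent molecules.

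Rpp25 is a protein subunit of ribonuclease P and of the related ribonuclease MRP, enzymes built on a catalytic RNA that process precursor transfer RNA and precursor ribosomal RNA, and it binds RNA as a partner of the subunit Rpp20. Cas9 cuts next to a short motif, the PAM (NGG for the common enzyme), and repair of the cut often leaves small insertions or deletions. In a C-terminal fusion GFP is translated after the tagged protein, so a shift of the reading frame inside the protein's coding sequence also takes GFP out of frame, whereas small insertions or deletions in untranslated sequence leave the reading frame as it was.

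The first 10 members, counted from the 5′ end of the gene, lay wholly inside the RefSeq promoter sequence of Rpp25 (GRCm38.p6, chr9:57503852-57504151), so that their targets could be read. They are shown for 2 things: which gRNAs were counted at all, and how few had GFP-negative counts at the very start of the gene. A missing GFP-negative count was also the common case in the library, where 20.0% of all gRNAs counted in bulk had one. Each target is written 5′ to 3′ in the orientation of its PAM, with its first base and the PAM in capitals, under the interval as deposited.
chr9:57504098-57504119: GaaggttggagggtgggctGGG
chr9:57504099-57504121: GtgaaggttggagggtgggcTGG
chr9:57504103-57504125: CccaccctccaaccttcactCGG
chr9:57504104-57504126: GccgagtgaaggttggagggTGG
chr9:57504107-57504129: GgcgccgagtgaaggttggaGGG
chr9:57504108-57504129: GgcgccgagtgaaggttggAGG
chr9:57504109-57504131: CtccaaccttcactcggcgcCGG
chr9:57504111-57504132: GccggcgccgagtgaaggtTGG
chr9:57504115-57504137: GgggtgccggcgccgagtgaAGG
chr9:57504128-57504150: GctggcagggattggggtgcCGG
The target at chr9:57504109-57504131 is on the plus strand, the one at chr9:57504103-57504125 has a PAM on both strands and is written on the plus strand, and the other 8 are on the minus strand. These sequences start and end 1 bp higher than the deposited interval. With that shift all 156 gRNAs of the Rpp25 library inside a promoter sequence of the reference ended in a PAM on either strand, against 55 of 156 without it.

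Of these 10 members 7 had counts in bulk, and all 7 targets begin with G. Of the 3 without a count in either library, chr9:57504103-57504125 and chr9:57504109-57504131 begin with C, and chr9:57504104-57504126 begins with G. The same split was seen over all targets of this library that could be read and have a PAM on a single strand. Of the targets of 23 letters, PAM included, 51 of 52 that begin with G and 0 of 53 that begin with another base had a bulk count, and all 43 targets of 22 letters began with G and had one.

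This bears on how many members were measured. The 54 members with 22-letter intervals were all counted in bulk, whereas 84 of the 187 with 23-letter intervals were, which leaves 103 members without a count in either library. Outside the gene 98.9% of the 22-letter and 32.3% of the 23-letter gRNAs were counted in bulk. In all, 138 of 241 members (57.3%) had a bulk count, against 46.1% of all 3918 gRNAs of the library, GFP-targeting ones included. The bulk counts of the 138 ran from 1 to 158 with a median of 24, and over all counted gRNAs the median was 29. No member had GFP-negative counts without a bulk count. The descriptions below are of the 138 measured members, and nothing can be said of the other 103.

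The bulk library held 74318 gRNA counts and the GFP-negative library 333608, so that 1 count is 13.5 CPM (counts scaled to a common library total) in bulk and 3.00 CPM in GFP-negative cells. The placeholder guide, left out of these totals, made up 0.609% and 0.000300% of counts.

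Gene-body gRNAs took a far larger share of the GFP-negative library than of bulk. Their share was 6.14% of bulk counts (4563 counts, exact Clopper-Pearson 95% interval 5.97% to 6.31%) and 37.9% of GFP-negative counts (126419 counts, 37.7% to 38.1%), a 6.17-fold ratio. The GFP-targeting gRNAs, which are the positive controls, went from 0.815% to 42.0% over the same libraries. A single one of them held 61186 of their 139999 GFP-negative counts. Of the 9 counted in bulk, 7 were at least 4-fold higher in GFP-negative cells, 1 was at least 4-fold lower and 1 lay between. Among counts without the GFP-targeting gRNAs the gene-body share was 6.19% in bulk and 65.3% in GFP-negative cells. Since shares sum to a fixed total, a gain of one gRNA lowers all others, and higher and lower are relative to the whole library throughout.

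The members also made up much of the head of the GFP-negative library. Of its 10 most counted gRNAs 5 were members and the other 5 were GFP-targeting, and of its 30 most counted gRNAs 17 were members and 7 were GFP-targeting. In bulk 0 of the 10 and 1 of the 30 most counted gRNAs were members.

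Behind this share the members were divided. Of the 138, 91 (65.9%) had a GFP-negative count, where 20.0% of all gRNAs counted in bulk did. A gRNA was called higher or lower when its CPM differed at least 4-fold between the libraries after 1 CPM was added on both sides. This addition is below 1 count in either library, and where both counts are above 0 it pulls the ratio only slightly toward 0. With no GFP-negative count the ratio is this 1 CPM over the bulk value, so its size depends on the amount added. With 1 bulk count and no GFP-negative count, chr9:57504387-57504408 was still called lower (log2 ratio −3.85). By these calls 51 of the 138 members (37.0%) were higher in GFP-negative cells, against 4.76% of all 1807 gRNAs with a bulk count. Another 56 (40.6%) were lower, against 89.2% of all, and 31 lay between. Of the 56, 47 had no GFP-negative count at all. The median log2 ratio was −0.17 for the members (−0.17 also with zeros set to 3 counts, a value that covers counting error only) and −8.00 for all gRNAs (−5.10 with zeros at 3 counts). The members' GFP-negative counts, where there were any, ran from 1 to 10838 with a median of 608, and over the positioned gRNAs outside the gene they ran from 1 to 4981 with a median of 26.5.

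The members differed by their position inside the gene. In 5 equal parts from the 5′ to the 3′ end, the share of counts went from 1.37% in bulk to 9.50% in GFP-negative cells in the first part, from 1.41% to 11.0% in the second, and from 1.11% to 15.1% in the third. In the fourth part it was 1.11% and 1.07%, and in the fifth 1.15% and 1.19%. The bulk shares of the 5 parts were thus alike, and the GFP-negative shares were high in the first 3 parts and low in the last 2. Of the members with a bulk count, 14 of 38, 19 of 33 and 13 of 24 were at least 4-fold higher in the first 3 parts, and 3 of 22 and 2 of 21 in the last 2. Over all gRNAs with a bulk count 4.76% were. In the second part 31 of 33 members counted in bulk had GFP-negative counts, against 20.0% of all gRNAs counted in bulk.

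Windows of 100 bp placed the changes more closely. The windows from 100 to 699 bp each took between 6.67 and 17.9 times as large a share of GFP-negative as of bulk counts. The highest was the window from 600 to 699 bp, with 489 bulk counts (0.658%) and 39254 GFP-negative counts (11.8%). In the next window, from 700 to 799 bp, there were 166 bulk and 350 GFP-negative counts, 0.470 times the bulk share. Beyond it the ratio ranged from 0.0684 in the window from 1200 to 1299 bp (290 bulk and 89 GFP-negative counts) to 2.88 in that from 1100 to 1199 bp (163 and 2104). The first 100 bp stood between, with 490 and 8769 counts and a ratio of 3.99. The limits of 100 and 700 bp used next were set after these values were seen.

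In the first 100 bp the members changed within a few bases. Of the 7 counted members shown by sequence above, chr9:57504098-57504119 had 2 bulk and 34 GFP-negative counts (a 3.79-fold CPM ratio, interval 0.971 to 32.5), and the other 6, with 3 to 22 bulk counts, had none in GFP-negative cells. The next member downstream, chr9:57504134-57504156 at 43 bp, had 51 and 775 counts (3.39-fold, 2.55 to 4.59). Close to it chr9:57504136-57504158 had 35 bulk counts and no GFP-negative count. The first members past 4-fold were chr9:57504141-57504163, with 14 and 719 counts (11.4-fold, 6.77 to 21.0), and chr9:57504142-57504163, with 26 and 973. Near the end of this stretch chr9:57504172-57504194 had 93 and 3877 counts and chr9:57504173-57504195 had 50 and 2261. Between these pairs, at 55 to 75.5 bp, 4 of 6 counted members had no GFP-negative count. The other 2 were chr9:57504164-57504186, with 69 and 24 counts, which is 12.9-fold lower (8.01 to 21.5), and chr9:57504166-57504188, with 13 and 106, which is 1.82-fold higher (1.02 to 3.52). Members with high and with no GFP-negative counts thus alternated here over overlapping targets.

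From 100 to 699 bp GFP-negative counts were the rule. Here 111 members, 69 of them counted in bulk, took 2.99% of bulk and 32.9% of GFP-negative counts, and held 86.8% of all GFP-negative counts of the gene-body gRNAs on 48.7% of their bulk counts. Of the 69 members 60 (87.0%) had GFP-negative counts, against 20.0% of all gRNAs counted in bulk. At least 4-fold higher were 41 (59.4%, against 4.76% of all) and at least 4-fold lower 12 (17.4%, against 89.2%). The median log2 ratio was 2.62. Of the 59 with at least 10 bulk counts 38 were higher and 4 had no GFP-negative count. Those 4, named after their values were seen, were chr9:57504211-57504233 (28 bulk counts), chr9:57504253-57504275 (23), chr9:57504511-57504533 (24) and chr9:57504695-57504717 (12).

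The most counted member in GFP-negative cells was chr9:57504741-57504762, at 649.5 bp. It had 135 bulk and 10838 GFP-negative counts, or 1817 and 32487 CPM, a 17.9-fold ratio (15.1 to 21.4). Second was chr9:57504341-57504362 at 249.5 bp, with 78 and 8070 counts (23.0-fold, 18.4 to 29.2). Next came chr9:57504736-57504758 at 645 bp, whose target overlaps that of the first, with 27 and 7676 counts. Its ratio of 63.3-fold (43.5 to 96.2) was the highest of any member with at least 10 bulk counts.

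The others among the 10 most counted lay over the same stretch, except for chr9:57504172-57504194 described above. They were chr9:57504710-57504731 (126 bulk and 6571 GFP-negative counts), chr9:57504425-57504447 (158 and 5907), chr9:57504671-57504693 (25 and 4603), chr9:57504502-57504523 (55 and 4328), chr9:57504550-57504571 (26 and 3840) and chr9:57504755-57504777 (25 and 3769). The second of these had the most bulk counts of all members. These 10 members held 47.0% of the GFP-negative and 16.4% of the bulk counts of all gene-body gRNAs.

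By ratio, among members with at least 10 bulk counts, chr9:57504736-57504758 was followed by chr9:57504671-57504693 at 41.0-fold (27.7 to 63.4), chr9:57504755-57504777 at 33.6-fold (22.7 to 52.0), chr9:57504721-57504742 at 33.1-fold (20.9 to 55.9) and chr9:57504550-57504571 at 32.9-fold (22.4 to 50.4). The intervals of all 5 overlap, and no difference between the 5 was tested. All 5 lie between 458.5 and 664 bp.

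The stretch of high counts ended between 708.5 and 740 bp. The last members before its end were chr9:57504787-57504809 at 696 bp, with 75 and 3361 counts (9.98-fold, 7.94 to 12.7), and chr9:57504800-57504821 at 708.5 bp, with 2 and 216 counts (24.1-fold, 6.58 to 199.9). The next 2 members counted in bulk, chr9:57504831-57504853 at 740 bp and chr9:57504845-57504866 at 753.5 bp, had 52 and 42 bulk counts and none in GFP-negative cells. With the GFP-negative count set at 3 they were 77.8-fold and 62.8-fold lower. These values leave out the counting error in bulk and treat reads as independent molecules. The number of sorted cells is not stated, so they are not firm lower bounds. The members between these 2 groups had no bulk count, so the edge could not be placed more closely.

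From 700 bp to the end of the gene the members took about the same share of both libraries. Here 100 members, 49 of them counted in bulk, took 2.49% of bulk and 2.37% of GFP-negative counts, a ratio of 0.949. For the positioned gRNAs outside the gene this ratio was 0.216. Of the 49, 31 (63.3%) were at least 4-fold lower, 12 lay between and 6 (12.2%) were higher. Over all gRNAs with a bulk count 89.2% were lower and 4.76% higher. A GFP-negative count was missing for 26 of the 49, so 46.9% had one, against 20.0% of all. The bulk counts of this stretch were no smaller than elsewhere in the gene, with a median of 32 against 24 from 100 to 699 bp.

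The 5 members with most bulk counts and no GFP-negative count all lay in this 3′ stretch. The first was chr9:57505166-57505187 at 1074.5 bp, with 132 bulk counts (198-fold lower with the GFP-negative count set at 3). It was followed by chr9:57505346-57505367 (69 bulk counts, 103-fold), chr9:57504939-57504960 (59, 88.3-fold), chr9:57505014-57505036 (53, 79.3-fold) and chr9:57504831-57504853, named above. As for the members at the edge, these folds are not firm lower bounds.

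The 6 higher members of the 3′ stretch, named after their values were seen, lay at several places. Besides chr9:57504800-57504821 they were chr9:57504954-57504975 at 862.5 bp (34 bulk and 1456 GFP-negative counts), chr9:57504964-57504986 (17 and 347), chr9:57505026-57505047 (20 and 410), chr9:57505174-57505195 at 1082.5 bp (44 and 1449) and chr9:57505280-57505302 at 1189 bp (56 and 1605). Among the 5 with at least 10 bulk counts the ratios were 4.55-fold to 9.54-fold with a median of 6.38-fold. The 38 such members between 100 and 699 bp ran from 4.7-fold to 63.3-fold with a median of 11.7-fold, so the ranges overlap. The members at 862.5 and 873 bp lie in a run of 7 counted members, from 862.5 to 889.5 bp, that all had GFP-negative counts (14 to 1456). It was picked by its values, as the longest such run from 700 bp on. Over all gRNAs counted in bulk 20.0% had a GFP-negative count. Only these 2 members of the run were higher. In the same run chr9:57504959-57504981 (15 and 14 counts) was at least 4-fold lower, and the rest lay between. Beyond 1200 bp 0 of 14 members counted in bulk were higher, where 4.76% of all gRNAs with a bulk count were. The 2 members there with most bulk counts were chr9:57505399-57505421 (136 and 69 counts) and chr9:57505391-57505413 (115 and 192). They were 8.85-fold (6.58 to 12.0) and 2.69-fold (2.12 to 3.41) lower.

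Members with nearly the same target did not always have the same result. There were 19 pairs of counted members whose intervals share a start or an end and differ by 1 bp in length, and in 15 of them both had at least 10 bulk counts. Both had GFP-negative counts in 8 of the 15 pairs, neither in 3, and a single one in 4. In those 8 pairs the log2 ratios of the 2 gRNAs were from 0.453 to 8.53 apart. The pairs described next had wide gaps. At the start position 57504736 the shorter gRNA had 14 and 372 counts and the longer 27 and 7676, log2 ratios of 2.56 and 5.98. At the end position 57504584 the gRNA starting at 57504562 had 23 and 630 counts and the one starting at 57504563 had 18 and 1. In the 3′ stretch chr9:57505280-57505302 had 56 and 1605 counts, while chr9:57505281-57505302 had 13 and 0. Such pairs are not replicates of one target, since the guides differ, but they show how far single gRNAs can part within 1 bp.

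How often a gRNA was counted in bulk went along with whether it was seen in GFP-negative cells. Of the 21 members with 1 to 9 bulk counts 7 had GFP-negative counts, of the 51 with 10 to 24 there were 31, of the 37 with 25 to 49 there were 29, and of the 29 with 50 or more there were 24. The numbers at least 4-fold higher were 4, 19, 14 and 14. Over all gRNAs with a bulk count 20.0% had GFP-negative counts and 4.76% were higher. The split by bulk count was not computed over all library gRNAs, so this link cannot be called particular to the members. Bulk abundance and position were not separated further than by the counts for members with at least 10 bulk counts given above. Interval length made less difference once a gRNA was counted: 19 of 54 counted 22-letter members and 32 of 84 counted 23-letter members were at least 4-fold higher. Over all positioned gRNAs counted in bulk, members included, 28 of 759 with 22 letters and 51 of 1039 with 23 letters were.

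Beyond the gene the gRNAs of the same library took smaller shares of the GFP-negative library than the members did. The 317 gRNAs in the 2 kb upstream, the promoter side, took 7.84% of bulk and 7.65% of GFP-negative counts, and 12 of the 152 counted in bulk were at least 4-fold higher. The 270 in the 2 kb downstream went from 6.04% to 2.19%, with 1 of 103 higher. The 3080 gRNAs farther away went from 79.2% to 10.3%, with 15 of 1405 higher. These differences between groups of gRNAs were not tested, as each population is 1 library.

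The values on both sides of the annotated gene limits, which set the membership, were as follows. Just outside the 5′ limit chr9:57504038-57504060 had 81 bulk and 68 GFP-negative counts, the 4 gRNAs between it and the gene had none in either library, and the first 2 members inside had 2 and 34 counts and 22 and 0. Just inside the 3′ limit the last 3 members had no count, and chr9:57505400-57505421 before them had 89 and 79. Outside it chr9:57505481-57505503 had no count in either library, and the next 5 gRNAs had 31 and 0, 13 and 0, 59 and 0, 41 and 185, and 113 and 0 counts.

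Nanog, which encodes a homeodomain protein of the pluripotency network, is the other gene of the series with a C-terminal GFP fusion, and its gene body can be set beside that of Rpp25 as values from another line and library. The 718 gRNAs inside Nanog (chr6:122707489-122714633, 7145 bp) took 13.6% and 15.5% of the counts of the 2 bulk libraries and 20.7% and 24.2% of the 2 GFP-negative libraries. The GFP-targeting gRNAs of that line took 0.564% and 0.575% of bulk and 10.2% and 12.1% of GFP-negative counts. The gene-body share in GFP-negative cells was below that of the GFP-targeting gRNAs for Rpp25 and above it in both Nanog libraries. For Rpp25 this order rested on the 1 GFP-targeting gRNA with 61186 GFP-negative counts, and without it the gene-body share was the larger. No test was made across lines, whose libraries cover different lengths of sequence.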

How the data were processed

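The authors deposited 1 table of raw gRNA counts per reporter line, in whole numbers and without normalization. Per the labels' protocols the libraries were made by PCR from genomic DNA, and per the submitters' processing notes positions are in mm10. Neither the counting program nor how many cells were sorted is stated in the labels. Of 33 samples, the 2 Rpp25 libraries were analysed, with the 4 Nanog libraries for comparison.

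CPM were computed over all library gRNAs without the placeholder. Ratios used gRNAs with a bulk count of at least 1 and a pseudocount of 1 CPM, and calls a 4-fold difference. Folds of single gRNAs were computed without pseudocount, with exact conditional binomial 95% intervals. Zero counts were set at 3 counts where a fold is given for them. There was no test. Gene spans and promoter sequences are from RefSeq (GRCm38.p6), matched by symbol. The arithmetic was tested on simulated data. Python 3.11.15 with pandas 2.3.3, numpy 2.4.6 and scipy 1.17.1 was used.

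Named gRNAs were the 10 with most GFP-negative counts, the 5 with the highest ratio among those with at least 10 bulk counts, the 5 with most bulk counts and no GFP-negative count, and those with at least 100 GFP-negative counts and no bulk count, of which there were 0. Others are said to be named after their values were seen or illustrate an edge, a pair or the gene limits. The members and lists were chosen with earlier results of these data known. Alternatives changed the totals, the limits of membership, the pseudocount, the fold and the minimum bulk count.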

Additional observations from a re-analysis of the deposited data

How the results depend on the processing

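Of 29 alternative values, 23 left the value within its counting interval, within the binomial interval of the median, or within 1.5 times the count. The log2 ratio of the gene-body share was 2.63, and 3.40 with totals without the GFP-targeting gRNAs, 2.54 without the member with most GFP-negative counts, and 1.97 without the 10 members with most (chosen after the data were seen). It was 2.63 with the placeholder counted, with whole intervals inside the gene (239 members), with any overlap (241 members), and after a shift of 1 bp. The number of members at least 4-fold lower was 56, and 37 with a pseudocount of 50 CPM. At that pseudocount a member with 1 to 9 bulk counts cannot be 4-fold lower, and 15 of the 56 had so few. For the 66 members with at least 25 bulk counts, an alternative also chosen after the data were seen that leaves fewer members to count, 18 were lower and 28 higher. Otherwise the number at least 4-fold higher was 51 and ranged from 35 at a fold of 8 to 61 at a fold of 2. The sign of the members' median log2 ratio was not settled: −0.17 as reported, 0.81 for members with at least 10 bulk counts, 1.23 with at least 25, and 0.60 with totals without the GFP-targeting gRNAs. The bulk library, at 13.5 CPM for 1 count, limits the precision of every ratio.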

Other observations

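The link between the first base of a target and its presence in bulk was also seen in the Nanog library. There, 53 of 55 readable 23-letter targets that begin with G, and 0 of 62 that begin with A, C or T, had a count in either of the 2 bulk libraries, and 16 of 17 22-letter targets, all beginning with G, did. All 140 Nanog-library gRNAs inside a promoter sequence of the reference ended in a PAM after the same shift of 1 bp, against 64 without it. Over the whole Rpp25 library 8 of 767 intervals of 22 letters and 2102 of 3141 of 23 letters had no bulk count.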
